A study of Mus musculus with 26 samples.

Results

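The genes described here carry out mitosis and the entry into it, the G2/M step of the cell cycle, and were followed in S49 cells, a mouse T-lymphoma cell line, exposed to a cyclic AMP (cAMP) analog. They were chosen by name as a list of 57 genes, with earlier results of these data known. Of these, 54 have a probe set annotated to a single gene symbol, among the 12393 genes so measured on the array. The brightest such probe set stood for each gene. Ccnb1, Cdca8 and Espl1 had none and are not analysed here. Kin-, a variant line without working cAMP-dependent protein kinase (PKA), was set beside wild-type (WT) S49. Each line was measured untreated (0 h, 4 arrays) and after 2, 6 and 24 h with the membrane-permeant analog 8-CPT-cAMP at 100 µM (3 arrays each), on 26 arrays in all. Both lines are cultured tumour cells, the sources used here do not say whether Kin- is a single clone, and no untreated arrays were taken at the later times.

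As background, cAMP acts in these cells mainly through PKA, and WT S49 cells are known to stop in G1 and later to die when cAMP is raised, which Kin- cells do not do. Messenger RNAs of mitotic genes are known to accumulate as cells pass through G2 and to be low in G1. Cyclins A2 and B with the kinase Cdk1 start mitosis, condensin compacts the chromosomes, kinetochores tie them to spindle microtubules, kinesin motors build and work the spindle, and the anaphase-promoting complex ends the process by marking cyclins and securin for destruction. Many of these genes are known to share 2 promoter elements, a CCAAT box bound by NF-Y and a cell cycle homology region (CHR) bound by the DREAM and MuvB complexes, which keep the genes silent in resting cells and active in G2.

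These elements were looked for in the promoters of the genes as listed by RefSeq on the mouse build GRCm38.p6, from 250 bases before to 50 bases after each gene's start, and 45 of the 54 genes have an entry. The letters searched on both strands were TTTGAA or TTCGAA for the CHR, CCAAT for the CCAAT box, TGACGTCA for the cAMP response element (CRE) to which CREB binds, and TTTGGCGC, TTTGCCGC, TTTCGCGC or TTTCCCGC for an E2F site; none of these contains another. A CHR was found in 32 of the 45 promoters (71.1%), against 35.9% of 78 other mitotic genes and 14.7% of 9887 genes on the array. CCAAT was found in 31 (68.9%), against 51.3% and 38.1%, and both together in 28 (62.2%), against 20.5% and 5.96%. Over all 27025 genes of the promoter table the shares were 19.4% for the CHR, 37.9% for CCAAT and 7.7% for both. The CRE was found in 3, those of Ncaph, Cenpe and Ndc80 (6.67%), against 6.41% of the other mitotic genes, 2.75% of the array's genes and 1.88% of the table. An E2F site was also found in 3 (6.67%), against 11.5%, 3.57% and 2.32%.

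Promoters of 6 of the genes are printed because their values, given further on, span the patterns seen: Ccnb2 and Cdk1 (cyclin and kinase that start mitosis), Plk1 (a mitotic kinase), Ndc80 and Cenpa (kinetochore and centromere), and Cdc25b, which moved against the rest. Each is given 5′ to 3′ on the gene's own strand, with CHR, CCAAT and CRE matches of either orientation in capitals. They lie at chr9:70421505-70421804 (Ccnb2, minus strand), chr10:69352863-69353162 (Cdk1, minus strand), chr7:122159185-122159484 (Plk1, plus strand), chr17:71526808-71527107 (Ndc80, minus strand), chr5:30666636-30666935 (Cenpa, plus strand) and chr2:131186698-131186997 (Cdc25b, plus strand).
Ccnb2: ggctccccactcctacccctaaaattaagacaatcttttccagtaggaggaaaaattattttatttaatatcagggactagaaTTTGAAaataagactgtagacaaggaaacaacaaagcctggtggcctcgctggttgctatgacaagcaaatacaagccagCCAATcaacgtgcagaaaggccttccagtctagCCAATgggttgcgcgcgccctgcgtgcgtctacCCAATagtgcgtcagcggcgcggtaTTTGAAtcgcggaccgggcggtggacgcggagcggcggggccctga
Cdk1: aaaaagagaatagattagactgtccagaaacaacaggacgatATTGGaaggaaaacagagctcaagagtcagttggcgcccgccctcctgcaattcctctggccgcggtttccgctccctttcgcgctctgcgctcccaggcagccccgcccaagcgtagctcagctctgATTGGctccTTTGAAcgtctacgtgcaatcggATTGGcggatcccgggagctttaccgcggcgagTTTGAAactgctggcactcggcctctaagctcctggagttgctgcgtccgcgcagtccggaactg
Plk1: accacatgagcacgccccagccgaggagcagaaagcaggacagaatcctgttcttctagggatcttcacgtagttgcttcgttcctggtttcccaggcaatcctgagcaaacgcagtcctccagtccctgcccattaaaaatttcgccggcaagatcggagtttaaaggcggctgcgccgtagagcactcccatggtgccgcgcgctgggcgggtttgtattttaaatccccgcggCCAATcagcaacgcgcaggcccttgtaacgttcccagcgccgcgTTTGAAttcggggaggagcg
Ndc80: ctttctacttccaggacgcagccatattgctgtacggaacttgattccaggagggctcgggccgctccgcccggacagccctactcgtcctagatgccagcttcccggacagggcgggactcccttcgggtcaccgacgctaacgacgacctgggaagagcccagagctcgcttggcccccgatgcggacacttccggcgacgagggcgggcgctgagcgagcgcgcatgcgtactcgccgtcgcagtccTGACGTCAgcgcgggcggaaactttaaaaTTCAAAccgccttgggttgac
Cenpa: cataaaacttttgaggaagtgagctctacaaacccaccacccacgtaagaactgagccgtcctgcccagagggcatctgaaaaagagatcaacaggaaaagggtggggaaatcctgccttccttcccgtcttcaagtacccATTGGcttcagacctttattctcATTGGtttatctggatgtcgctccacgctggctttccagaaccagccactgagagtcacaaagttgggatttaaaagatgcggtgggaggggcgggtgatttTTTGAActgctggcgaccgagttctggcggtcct
Cdc25b: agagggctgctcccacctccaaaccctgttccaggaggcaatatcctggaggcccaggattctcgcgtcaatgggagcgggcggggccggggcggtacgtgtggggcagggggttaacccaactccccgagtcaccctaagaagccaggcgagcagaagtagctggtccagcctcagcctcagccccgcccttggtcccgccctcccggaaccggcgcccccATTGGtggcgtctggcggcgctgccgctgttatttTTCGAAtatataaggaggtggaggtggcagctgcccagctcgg
Counted from 1 at the annotated start, Ccnb2 has CCAAT boxes beginning at −87, −54 and −21 and CHRs at −167 and 5, and Cdk1 has CCAAT boxes in the reverse orientation at −208, −80 and −48 with CHRs at −71 and −15. Plk1 has a CCAAT box at −14 and a CHR at 31. Cenpa has reverse CCAAT boxes at −109 and −86 and a CHR at 17, and Cdc25b a reverse CCAAT box at −28 and a CHR, with the letters TTCGAA, at 8. The Ndc80 promoter holds the CRE at 1 and a CHR in the reverse orientation at 30, and no CCAAT box in this window. A match is a description of the letters and not a site shown to be bound.

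Levels are the square root of the deposited score, taken as a log2 intensity. The scale of the score is not given in the sources used here, so 1 unit need not equal a doubling, and levels of different probe sets are not compared as amounts of RNA. The mean levels of the 54 genes ran from 6.72 to 12.6. The mean of 9 T-cell markers lay between 9.60 and 10.4 in every array, with Cd3d, Cd3g, Lat and Thy1 at or above 10.7 throughout, while Cd5 did not exceed 3.91 in any array. That mean covers opposite shifts: in WT at 24 h Cd3d, Cd3e, Cd3g, Cd247 and Zap70 rose by 0.78 to 1.10, and Thy1 (−0.77) and Cd2 (−1.36) fell. Their part in the results was not tested. Means of the B-cell, myeloid, erythroid and fibroblast marker lists lay between 3.06 and 4.35. The myeloid mean was 3.87 to 4.35 in WT at 24 h, against 3.71 to 3.82 at 0 h, and Itgam, 1 of its 5 genes, rose by 2.11. Lyz2 stayed at or below 4.08, Mpo at or below 3.45 and Cd14 at or below 1.78 in all arrays. The number of arrays limits the precision, and nothing in the labels ties a group's arrays to different cultures: p-values reflect the spread between arrays, which may be technical. For the alternatives the arrays were split by their numbers into 2 sets, 1 to 14 and 16 to 47, both present in every group. The labels name no batch, and this split is a choice. The fit also treats the arrays as independent, although arrays of a run of consecutive numbers, here an array series, deviated together.

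At 24 h nearly all of the mitotic genes were lower in WT cells than in untreated WT cells. Of the 54 genes, 51 fell (adjusted p under 0.05, limma), where 16.3% of all genes on the array were lower, and 2 rose, Smc4 and Cdc25b, where 16.3% of all genes were higher. The median change was −1.63 log2 units (range −2.94 to 1.11), beside −0.01 over all genes, and the remaining gene was Cenpa. In bulk RNA, fewer cells in G2 and mitosis and less of each mRNA per cell cannot be told apart. Genes with low levels were called less often: 94.4% of the 54 were lower at 24 h, and of the 5716 genes with a mean level of at least 6.72, the lowest among the 54, 32.7% were lower and 27.2% higher.

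At 6 h most estimates were above 0, some were below, and the changes were much smaller than at 24 h. At that time 13 of the 54 genes rose, where 11.0% of all genes were higher, and none fell (1 with the array series as a replicate block), where 11.1% were lower; 18 of the 54 had an unadjusted p under 0.05 in either direction (limma). The 13 were Ccnb2, Cdc25b, Cdc25c, Ttk, Cenpa, Ndc80, Kif2c, Kif4, Tpx2, Smc4, Ncaph, Pttg1 and Racgap1. Their share, 24.1%, stood beside 20.5% among the 5716 genes with a mean level of at least 6.72, while the share that fell, 0%, stood beside 22.4% there. The median change was 0.22 and 43 of the 54 estimates were above 0, beside a median of −0.03 over all genes. Bub1b, Cenph, Ercc6l and Aurkb lay below every untreated array at 6 h without passing. All of the 13 but Pttg1 lay above every untreated array, as did Tacc3 and Cdca3, which did not pass. The share of all genes so separated was not counted. The count rested on single arrays: 6 genes rose without WT 6 h array 18, and 18 rose without WT 6 h array 3. The count of 0 lower was 1 without WT 6 h array 3 or WT 24 h array 4 or 39, and 2 without WT 24 h array 19.

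At 2 h few genes passed. Kif4 and Cdca5 rose (2 of 54, where 7.25% of all genes were higher) and Aurkb and Birc5 fell (2 of 54, where 8.44% were lower), with a median of 0.13; 15 of the 54 had an unadjusted p under 0.05, beside 18 at 6 h. The 2 h calls were marginal: with the array series as a replicate block 6 genes rose and 2 fell. Leaving out WT 0 h array 16 or 36, or WT 2 h array 17 or 37, gave 0 higher, and leaving out WT 24 h array 4 gave 7 higher and 4 lower. The lower count was 0 without WT 0 h array 13 or WT 2 h array 17.

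**Figure D1:**
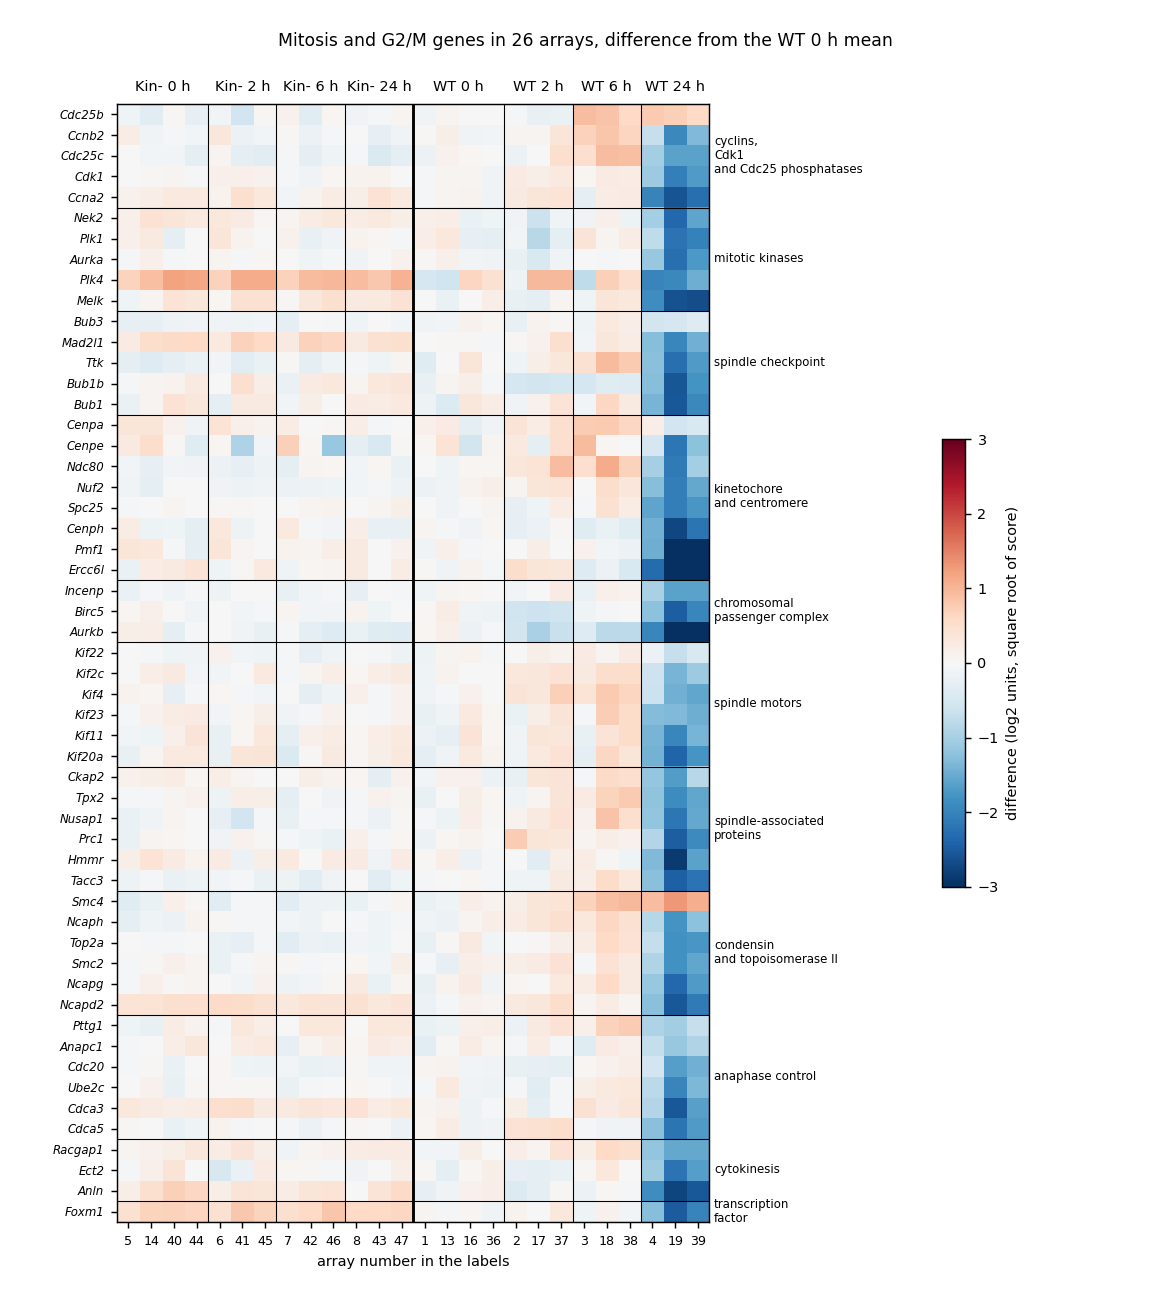
Each row is a gene, grouped by role, and each column an array, by line and time; colour is the level minus the mean of the 4 WT 0 h arrays in log2 units (square root of the score), with differences beyond 3 drawn at the end of the scale. Kin- columns stay pale at every time apart from a few genes such as Foxm1 and Plk4, WT 6 h columns are faintly red, and the 3 WT 24 h columns are blue in all rows but Smc4, Cdc25b and Cenpa, least so in array 4.

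Of the genes that start mitosis, the cyclins and Cdk1 fell and the activating phosphatases Cdc25b and Cdc25c parted at 24 h. Ccna2 (cyclin A2, a partner of Cdk1 and Cdk2) was 9.34, 8.75 and 9.08 in the WT 24 h arrays, against 11.28, 11.41, 11.43 and 11.22 in the WT 0 h arrays. All 3 treated arrays lay below the 4 untreated ones, by −2.28 ± 0.13 (SE, adjusted p 3.46e-11), and the 13 Kin- arrays lay between 11.25 and 11.80. At 6 h Ccna2 was 11.06, 11.55 and 11.57 in WT, on both sides of the untreated arrays. Cdk1, the kinase itself, was 11.32, 10.36 and 10.71 in WT at 24 h, against 12.36, 12.49, 12.48 and 12.30 at 0 h, a change of −1.61 ± 0.13 (adjusted p 4.21e-09) in which no array overlapped. Its Kin- arrays ran between 12.30 and 12.56.

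Ccnb2 (cyclin B2) took a biphasic course in WT cells. It was 10.09, 10.23, 9.94 and 9.96 at 0 h, 10.75, 10.88 and 10.69 at 6 h and 9.35, 8.12 and 8.73 at 24 h, above every untreated array at 6 h (0.72 ± 0.18, adjusted p 0.00686) and below every one at 24 h (−1.32 ± 0.18, adjusted p 6.87e-06). Cdc25c, which activates Cdk1 at mitotic entry, followed it with 0.78 ± 0.16 at 6 h (adjusted p 0.00138) and −1.41 ± 0.16 at 24 h (adjusted p 6.49e-07). Cdc25b, the phosphatase known to act earlier, in G2, did not come down again. It was 8.06, 8.23, 8.17 and 8.17 in WT at 0 h, 8.10, 7.93 and 7.96 at 2 h, 9.09, 9.01 and 8.76 at 6 h and 8.95, 8.87 and 8.76 at 24 h, so that all 6 arrays of 6 and 24 h lay above the untreated ones. The changes were 0.79 ± 0.13 at 6 h (adjusted p 0.000103) and 0.70 ± 0.13 at 24 h (adjusted p 0.000178), while the 13 Kin- arrays ran between 7.59 and 8.29. Cdc25b has a single probe set here.

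The 5 mitotic kinases all fell at 24 h, with changes of −1.65 to −2.38, and none passed at 6 h. Plk1 (polo-like kinase 1, needed for mitotic entry and spindle assembly) was 10.02, 8.56 and 8.75 in WT at 24 h, against 10.97, 11.10, 10.52 and 10.51 at 0 h, a change of −1.66 ± 0.25 (adjusted p 1.87e-05). The groups did not overlap, and array 4 lay more than 1 unit above the other WT 24 h arrays; in Kin- the gene ran between 10.51 and 11.14. Melk, a kinase that peaks in mitosis, fell furthest in this group, to 7.47, 6.73 and 6.67 in WT at 24 h, against 9.33, 9.14, 9.35 and 9.55 at 0 h (−2.38 ± 0.18, adjusted p 2.01e-09). The other members were Aurka (spindle poles) with −1.71 ± 0.16, Nek2 (centrosome separation) with −1.65 ± 0.20 and Plk4 (centriole duplication) with −1.79 ± 0.34. Plk4 differed between the array sets in untreated WT, at 9.20 and 9.10 in arrays 1 and 13, beside 10.36 and 10.16 in arrays 16 and 36.

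The 5 spindle checkpoint genes, whose products hold anaphase until all chromosomes are attached, also all fell at 24 h. Bub1, a checkpoint kinase at the kinetochore, was 9.05, 7.89 and 8.50 in WT at 24 h, against 10.30, 10.03, 10.78 and 10.66 at 0 h (−1.96 ± 0.24, adjusted p 9.73e-07), with no overlap. Ttk, the kinase (Mps1) that recruits the checkpoint, was the one member that had risen at 6 h. Its WT levels were 7.51, 7.87, 8.22 and 7.87 at 0 h, 8.32, 8.83 and 8.66 at 6 h and 6.61, 5.60 and 6.16 at 24 h, and its changes were 0.73 ± 0.18 (adjusted p 0.00582) and −1.75 ± 0.18 (adjusted p 1.66e-07). In all 3 arrays of 6 h Ttk was above the untreated arrays and in all 3 arrays of 24 h below them. Bub1b (BubR1) changed by −1.88 ± 0.20 and Mad2l1 (Mad2) by −1.56 ± 0.15. Bub1b also lay below the untreated arrays (10.47 to 10.87) at 2 h (10.15 to 10.17) and 6 h (10.18 to 10.32), without passing. Bub3 fell least, with −0.48 ± 0.09 in its brightest probe set; its next brightest changed by −1.24 and 2 dim ones near the bottom of the scale did not pass.

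Among the 8 kinetochore and centromere genes, 7 fell at 24 h, and the group held both the largest fall of all 54 genes and the one gene that did not pass. Ercc6l (PICH, a DNA translocase on ultrafine anaphase bridges) was 5.91, 5.06 and 4.85 in WT at 24 h, against 8.25, 8.10, 8.31 and 8.18 at 0 h. The change was −2.94 ± 0.18 (adjusted p 8.98e-11), and the 13 Kin- arrays, between 8.02 and 8.62, all lay above every WT 24 h array. Pmf1, a subunit of the Mis12 complex, changed by −2.80 ± 0.32 in its brightest probe set and by −1.43 in its other one. Cenph changed by −2.13 ± 0.20, and the Ndc80 complex subunits Spc25 and Nuf2 by −1.80 ± 0.11 and −1.64 ± 0.15.

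Ndc80, the subunit of that complex that grips microtubules, was 9.41, 9.29, 9.49 and 9.49 at 0 h, 9.76, 9.83 and 10.34 at 2 h, 9.91, 10.54 and 10.12 at 6 h and 8.43, 7.29 and 8.41 at 24 h in WT. It was above all untreated arrays at 2 and 6 h, although the change passed only at 6 h (0.56 ± 0.20, adjusted p 0.0779 at 2 h; 0.77 ± 0.20, adjusted p 0.00849 at 6 h), and below them at 24 h (−1.38 ± 0.20, adjusted p 1.37e-05). Without WT 6 h array 18 the 6 h change was 0.60 (adjusted p 0.0799). Cenpa, the histone H3 variant that marks centromeres, rose at 6 h and did not pass the threshold at 24 h. Its WT levels were 10.91, 11.02, 10.46 and 10.65 at 0 h, 11.53, 11.55 and 11.37 at 6 h and 10.95, 10.18 and 10.30 at 24 h, with a change of 0.72 ± 0.16 at 6 h (adjusted p 0.00203) and −0.28 ± 0.16 at 24 h (adjusted p 0.235). Array 4 of 24 h lay within the untreated range and arrays 19 and 39 below it, and without array 4 the 24 h change was −0.52 (adjusted p 0.00833). Cenpe, a kinetochore motor, passed at 24 h with −1.30 ± 0.41 (adjusted p 0.0169), but its SE stood beside a median of 0.17 over the 54 genes, and array 4 overlapped the untreated arrays.

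The chromosomal passenger complex corrects faulty attachments and guides cytokinesis. Its kinase Aurkb moved early: it was 10.75, 10.85, 10.52 and 10.65 in WT at 0 h, 10.14, 9.71 and 10.02 at 2 h, 10.30, 9.89 and 9.91 at 6 h and 8.74, 7.23 and 7.46 at 24 h, and every treated array lay below every untreated one. The changes were −0.73 ± 0.23 at 2 h (adjusted p 0.0398), −0.65 ± 0.23 at 6 h (adjusted p 0.0549, not passed) and −2.88 ± 0.23 at 24 h (adjusted p 4.54e-09). With the array series as a replicate block the 6 h change was −0.64 and passed (adjusted p 0.0144), as it did without WT 6 h array 3 (−0.79, adjusted p 0.0398) and, unchanged at −0.65, without WT 24 h array 4, 19 or 39 (adjusted p 0.000962, 0.0271 and 0.0497). Birc5 (survivin) was 11.81, 11.79 and 11.81 in WT at 2 h, against 12.45, 12.64, 12.30 and 12.26 at 0 h (−0.61 ± 0.17, adjusted p 0.016). It stood at −0.05 ± 0.17 at 6 h and changed by −1.89 ± 0.17 at 24 h. Incenp, the scaffold, was 10.56, 9.91 and 9.91 in WT at 24 h, against 11.40, 11.61, 11.57 and 11.51 at 0 h (−1.40 ± 0.13, adjusted p 1.9e-08), and lay at 0.02 ± 0.13 at 6 h.

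All 6 kinesin motors of the spindle fell at 24 h, and their 6 h estimates were all above 0. Kif4 (chromokinesin, midzone length) was 8.72, 8.76, 8.95 and 8.84 at 0 h, 9.19, 9.15 and 9.53 at 2 h, 9.23, 9.61 and 9.46 at 6 h and 8.17, 7.37 and 7.26 at 24 h in WT. Its arrays of 2 and 6 h were all above the untreated ones and those of 24 h all below, with changes of 0.47 ± 0.16 (adjusted p 0.0498), 0.62 ± 0.16 (adjusted p 0.00679) and −1.21 ± 0.16 (adjusted p 2.76e-06). Without WT 6 h array 18 the 6 h change was 0.53 (adjusted p 0.0521). The 2 h call of Kif4 was kept under only 13 of the 37 alternatives. Kif20a (cytokinesis) fell furthest, to 8.53, 7.54 and 8.18 in WT at 24 h, against 9.65, 9.83, 10.23 and 10.06 at 0 h (−1.85 ± 0.24, adjusted p 3.14e-06). Kif11 (Eg5, pole separation) changed by −1.58 ± 0.20 and Kif23 (central spindle) by −1.36 ± 0.16. Kif2c (MCAK, a microtubule depolymerase) rose by 0.44 ± 0.14 at 6 h and changed by −1.03 ± 0.13 at 24 h. Its 6 h call was kept under 31 of the 37 alternatives, and its dimmer probe sets (0.44, −0.08 and −0.03) did not pass at 6 h. Kif22 changed by −0.44 ± 0.10 in its brightest probe set, while its other 2 changed by −1.44 and −1.59, and by 0.65 and 0.66 at 6 h, all past the threshold.

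The 6 spindle-associated proteins all fell at 24 h, with changes of −1.22 to −1.98. Tacc3, which stabilises kinetochore fibres, was 9.39, 8.20 and 8.43 in WT at 24 h, against 10.62, 10.66, 10.72 and 10.62 at 0 h (−1.98 ± 0.18, adjusted p 2.2e-08), without overlap. Its 6 h change of 0.36 ± 0.18 did not pass (adjusted p 0.21), but 3 of the 37 alternatives called it: without WT 24 h array 4 (adjusted p 0.0138), with array weights (0.0127) and with the compared groups only (0.0338). Tpx2, an activator of Aurka, was 9.63, 9.83, 10.04 and 9.92 at 0 h, 10.11, 10.52 and 10.64 at 6 h and 8.66, 7.97 and 8.29 at 24 h in WT. It rose at 6 h (0.57 ± 0.15, adjusted p 0.00933) and fell at 24 h (−1.55 ± 0.15, adjusted p 6.03e-08). The 6 h call was lost without WT 6 h array 18 (0.52, adjusted p 0.0517) or 38 (0.46, adjusted p 0.0757), and the dimmer probe set of Tpx2 stood at −0.45 at 6 h (adjusted p 0.374). Hmmr, Prc1, Nusap1 and Ckap2, which bind or bundle microtubules, changed by −1.94, −1.75, −1.63 and −1.22.

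**Figure D2:**
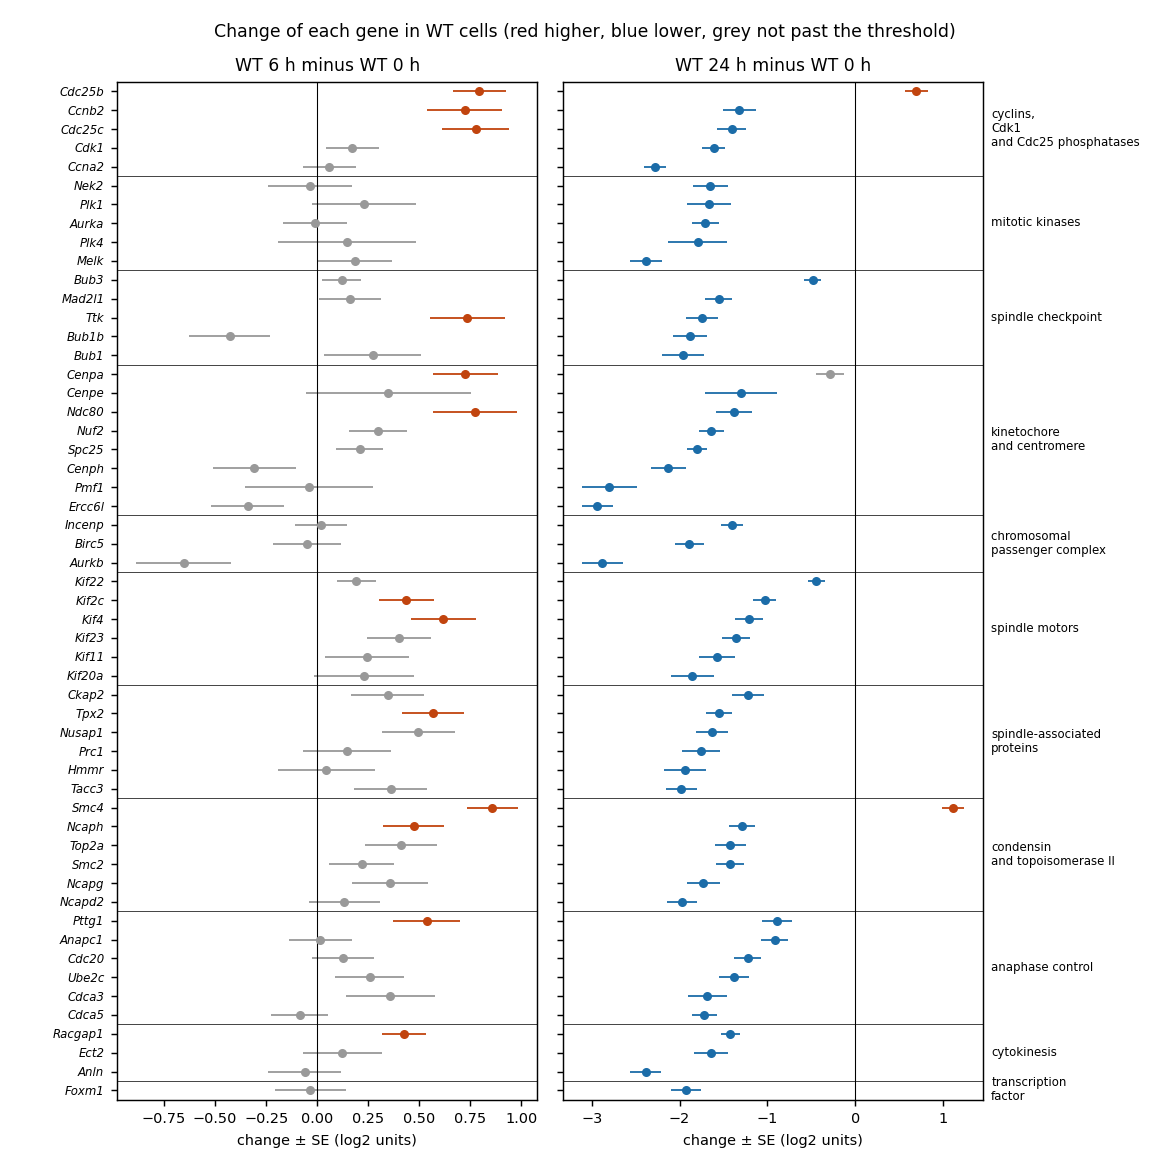
Points are the change of each of the 54 genes in WT cells at 6 h (left) and 24 h (right) against 0 h, in log2 units with the standard error, grouped by role; red passed higher, blue passed lower and grey did not pass. The left panel spans −0.65 (Aurkb) to 0.86 (Smc4), and in the right panel all points lie below 0 except Cdc25b and Smc4.

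Condensin, the ring complex that compacts mitotic chromosomes, did not move as a unit. Smc4, an ATPase core subunit of both condensin I and II, was 12.20, 12.27, 12.60 and 12.50 at 0 h, 12.56, 12.76 and 12.80 at 2 h, 13.09, 13.29 and 13.37 at 6 h and 13.33, 13.69 and 13.48 at 24 h in WT cells. All 6 arrays of 6 and 24 h lay above the untreated arrays, with changes of 0.86 ± 0.13 at 6 h (adjusted p 3.23e-05) and 1.11 ± 0.13 at 24 h (adjusted p 4.46e-07), and the 13 Kin- arrays ran between 12.03 and 12.55. All 3 probe sets of Smc4 rose, by 0.76 to 0.86 at 6 h and by 1.11 to 1.37 at 24 h. Smc2, its partner in the ring, was 10.07, 9.16 and 9.43 in WT at 24 h, against 10.92, 10.72, 11.18 and 11.10 at 0 h (−1.43 ± 0.16, adjusted p 2.89e-07). All 3 treated arrays of Smc2 lay below the untreated ones, so that the 2 core subunits changed in opposite directions.

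The condensin I subunits went with Smc2. Ncapd2 was 8.96, 7.66 and 8.10 in WT at 24 h, against 10.04, 10.17, 10.34 and 10.29 at 0 h (−1.97 ± 0.17, adjusted p 1.45e-08). Ncapg changed by −1.73 ± 0.19. Ncaph (the kleisin that closes the ring) rose by 0.47 ± 0.15 at 6 h (adjusted p 0.0268) and changed by −1.29 ± 0.15 at 24 h. Its 6 h call was kept under 30 of the 37 alternatives, and its dimmer probe set (0.41) did not pass at 6 h. Top2a, the topoisomerase that untangles sister chromatids beside condensin, changed by −1.42 ± 0.18 at 24 h and stood at 0.41 ± 0.18 at 6 h (adjusted p 0.124).

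**Figure D3:**
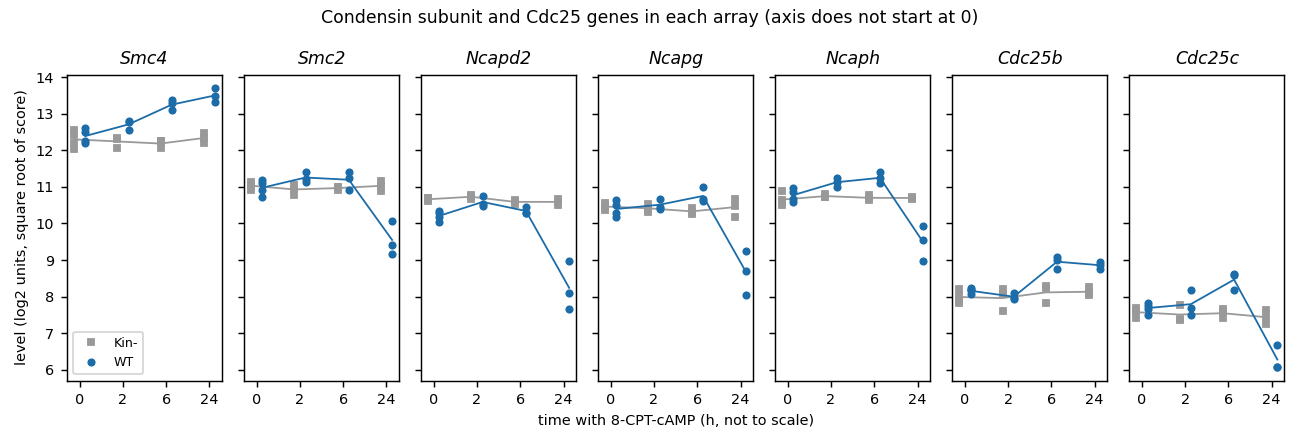
Level in every array (log2 units, square root of the score; axis does not start at 0) against time with 8-CPT-cAMP for the 5 condensin subunits and the 2 Cdc25 phosphatases, grey squares Kin- and blue circles WT, with lines through group means. In WT, Smc4 and Cdc25b lie above their untreated arrays at 6 and 24 h, while Smc2, Ncapd2, Ncapg, Ncaph and Cdc25c lie below theirs at 24 h; the Kin- lines are flat.

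The 6 genes of anaphase control all fell at 24 h, with changes of −0.89 to −1.72. Pttg1 (securin, the separase inhibitor) fell least. Its WT levels were 11.63, 11.67, 11.96 and 12.02 at 0 h, 11.97, 12.51 and 12.58 at 6 h and 10.89, 10.77 and 11.13 at 24 h, with changes of 0.54 ± 0.17 (adjusted p 0.0251) and −0.89 ± 0.17 (adjusted p 0.000201). One of the 6 h arrays overlapped the untreated range, and the 6 h call was lost without WT 0 h array 1 or 13 (0.47 and 0.49, adjusted p 0.0786 and 0.0726) or WT 6 h array 18 or 38 (0.46 and 0.42, adjusted p 0.128 and 0.157). Cdca5 (sororin, which protects sister cohesion) was 11.35, 11.52, 11.15 and 11.18 at 0 h, 11.74, 11.75 and 11.84 at 2 h, 11.25, 11.19 and 11.20 at 6 h and 10.06, 9.11 and 9.59 at 24 h in WT. Its 2 h arrays were all above the untreated ones (0.47 ± 0.14, adjusted p 0.0235), its 6 h arrays were within their range, and its 24 h arrays were below (−1.72 ± 0.14, adjusted p 4.32e-09). Cdc20 (activator of the anaphase-promoting complex) changed by −1.22 ± 0.15, Ube2c (its ubiquitin-conjugating enzyme) by −1.38 ± 0.17, Cdca3 (Tome-1, a trigger of mitotic entry) by −1.68 ± 0.22 and Anapc1 (the largest subunit of that complex) by −0.91 ± 0.16.

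The 3 cytokinesis genes fell as well. Anln (anillin, a scaffold of the contractile ring) was 7.53, 6.65 and 6.87 in WT at 24 h, against 9.17, 9.31, 9.54 and 9.60 at 0 h (−2.39 ± 0.18, adjusted p 1.44e-09). Racgap1, which signals from the central spindle, was 10.87, 10.87, 11.13 and 10.93 at 0 h, 11.14, 11.55 and 11.44 at 6 h and 9.76, 9.41 and 9.41 at 24 h in WT, with changes of 0.43 ± 0.11 (adjusted p 0.00658) and −1.42 ± 0.11 (adjusted p 2.08e-09). All 3 arrays of 6 h lay above the untreated ones, but the call was lost without array 18 (0.34, adjusted p 0.064), and the other probe set stood at −0.18 at 6 h (adjusted p 0.429). Ect2, the exchange factor that Racgap1 activates, changed by −1.64 ± 0.20. Foxm1, the transcription factor that drives many G2/M genes, was 7.24, 6.02 and 6.53 in WT at 24 h, against 8.61, 8.50, 8.58 and 8.43 at 0 h (−1.93 ± 0.17, adjusted p 2.03e-08). At 6 h its change of −0.03 ± 0.17 left it among its untreated arrays, apart from array 3 just below them and array 18 just above.

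Side by side, kinetochore, motor, condensin and cyclin genes shared the sign of their median change at each time, and the ranges of their class means over the 3 WT arrays overlapped between every pair of classes at both times. At 6 h the median change was 0.25 for the 8 kinetochore and centromere genes, 0.32 for the 6 motors, 0.36 for the 5 condensin subunits and 0.39 for the 2 cyclins, with 2, 2, 2 and 1 of them past the threshold, all higher. At 24 h the medians were −1.72, −1.29, −1.43 and −1.80, with 7 of 8, 6 of 6, 4 of 5 and 2 of 2 lower. Class means per array, as the difference from the WT 0 h mean, were −1.78 ± 0.59, −1.25 ± 0.31, −1.06 ± 0.40 and −1.80 ± 0.45 in WT at 24 h (SD, n = 3). At 6 h they were 0.21 ± 0.10, 0.35 ± 0.26, 0.41 ± 0.15 and 0.39 ± 0.16 in WT. In each of the 3 WT 24 h arrays the kinetochore and cyclin means were the lowest, the motors came next and condensin, whose mean includes Smc4, was the highest. By the class median in each array, condensin lay below the motors in array 19 (−1.82 against −1.41) and array 39 (−1.55 against −1.43). In array 4 it lay above them (−0.91 against −0.97). The motor mean includes the brightest probe set of Kif22 (−0.44), whose other probe sets changed by −1.44 and −1.59. The order of means thus depends on single genes and was not tested. In the 3 Kin- arrays of 24 h the same class means were −0.01 ± 0.07, 0.10 ± 0.06, 0.07 ± 0.09 and 0.09 ± 0.00.

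**Figure D4:**
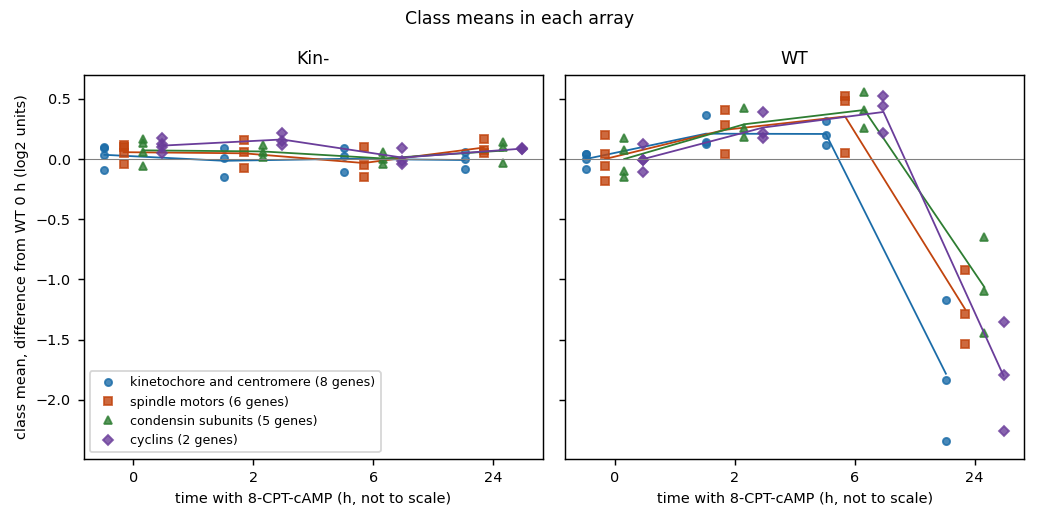
Mean difference from the WT 0 h mean (log2 units) over the genes of 4 classes in each array, Kin- left and WT right, against time with 8-CPT-cAMP; lines join group means. All Kin- points lie near 0, WT points lie between 0.05 and 0.56 at 6 h, and at 24 h between −2.34 and −0.64, with array 4 the highest of each class.

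In Kin- cells no gene of the list passed the threshold at 2, 6 or 24 h against 0 h (limma), and 0 of the 54 had an unadjusted p under 0.05 at any of the 3 times. Over all genes 0% were called in each of these comparisons. The fit shares its spread over all groups, so Kin- standard errors also carry the WT 24 h spread. The SD of the 54-gene array mean was 0.46 in WT at 24 h, beside 0.03 to 0.04 in Kin- groups. A count of 0 thus does not show unchanged genes. In Kin-, Ttk at 24 h lay above every untreated array (7.73 to 7.95 against 7.49 to 7.67). Top2a at 6 h lay below (12.10 to 12.22 against 12.34 to 12.40). The share of all genes so separated was not counted. The estimates for the 54 genes ran from −0.43 to 0.18 at 2 h, from −0.26 to 0.21 at 6 h and from −0.35 to 0.25 at 24 h. Between untreated Kin- and WT cells 1 of the 54 genes passed the threshold, higher in Kin-, where 1.74% of all genes were higher in Kin-. This was Foxm1, at 8.99, 9.20, 9.21 and 9.16 in Kin- and 8.61, 8.50, 8.58 and 8.43 in WT, a difference of 0.61 ± 0.16 (Kin- minus WT, adjusted p 0.0399) with no overlap. The call was kept under 24 of the 37 alternatives; the count was 0 without any 1 of the 4 WT 0 h arrays, Kin- 0 h array 14, 40 or 44, Kin- 2 h array 45 or Kin- 6 h array 42, 2 without Kin- 0 h array 5 or WT 6 h array 3, 3 without WT 24 h array 19 and 4 without WT 24 h array 4. Plk4 had the largest estimate, 0.98 ± 0.31, and did not pass (adjusted p 0.113). Untreated Kin- arrays of Plk4, Mad2l1, Ncapd2, Cdca3 and Ccna2 all lay above the untreated WT arrays, and those of Bub3 and Tacc3 all below, without passing. Mad2l1 and Plk4 stayed uncalled under 30 and 31 of the 37 alternatives. The share of all genes so separated was not counted for the untreated lines.

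The difference between the responses was tested directly, as the WT change minus the Kin- change. At 24 h it was past the threshold in 52 of the 54 genes. In 50 the WT response was lower, where 12.0% of all genes were, and in 2, Smc4 and Cdc25b, it was higher, where 11.7% were. The exceptions were Cenpa (−0.14 ± 0.23, adjusted p 0.859) and Cenpe (−0.95 ± 0.57, adjusted p 0.327). At 6 h the difference passed in 7 genes, all higher in WT, where 5.91% of all genes were higher: Cdc25b, Cdc25c, Cenpa, Kif4, Tpx2, Smc4 and Racgap1. Smc4 had the largest, 0.97 ± 0.18 (adjusted p 0.000854), and Kif4 the highest adjusted p of the 7 (0.71 ± 0.22, adjusted p 0.0443). The Kif4 call was kept under 19 of the 37 alternatives. The count at 6 h was 1 without WT 6 h array 18, 3 without Kin- 6 h array 42, and 4 without WT 6 h array 38, WT 0 h array 1 or Kin- 6 h array 46. The 24 h call of Cdc25b was kept under 27 of the 37 alternatives and that of Smc4 under 36; the count of higher genes was 1 without WT 24 h array 4 or 19, WT 0 h array 1, Kin- 24 h array 8 or 43, or Kin- 0 h array 5 or 40. At 2 h no gene passed, with 5 genes at an unadjusted p under 0.05, where 7.71% of all genes were called in either direction.

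From one WT time to the next, the movement fell almost wholly between 6 and 24 h. From 2 to 6 h, 5 genes rose (Cdc25b, Cdc25c, Ttk, Birc5 and Smc4, where 7.64% of all genes were higher) and 2 fell (Ercc6l with −0.75 ± 0.19 and Cdca5 with −0.56 ± 0.15, where 6.38% were lower). With the array series as a replicate block 9 rose. The count of 5 was 1 without WT 6 h array 38, 2 without WT 6 h array 18 or WT 2 h array 2 or 17, 8 without WT 6 h array 3 or WT 24 h array 19, 12 without WT 24 h array 4, and 3 without WT 24 h array 39 or any 1 of the Kin- arrays 5, 6, 40, 41, 42, 45, 46 and 47. The count of 2 was 1 without WT 2 h array 37 or WT 6 h array 38. Cdc25b made the largest of these steps, 0.96 ± 0.14 (adjusted p 8.5e-05). From 6 to 24 h, 52 of the 54 genes fell, where 9.84% of all genes were lower, and 0 rose, where 9.85% were higher, with a median of −1.84 (limma; 52 at an unadjusted p under 0.05). The exceptions were Smc4 (0.25 ± 0.13, adjusted p 0.259) and Cdc25b (−0.10 ± 0.14, adjusted p 0.815). Cenpa was among the 52 (−1.01 ± 0.17, adjusted p 0.000187). The comparisons against 0 h and against 6 h share arrays.

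The size of the 24 h fall varied between the WT arrays in the same way for most genes. Over the 51 genes that fell, the median difference from the WT 0 h mean was −1.19 in array 4, −2.16 in array 19 and −1.62 in array 39. Array 4 was the highest of the 3 for 46 of the 51 genes and array 19 the lowest for 43. Even so, array 4 lay below every untreated WT array for 50 of the 51, and arrays 19 and 39 did for all 51. Without array 4 the median change of the 54 genes was −1.83 and without array 19 it was −1.38. Array 4 belongs to the set numbered 1 to 14, whose part in this spread was not tested.

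Probe sets of a gene that passed at 24 h gave the same direction. Of those that did not pass, 1 each of Bub3, Kif2c and Top2a stood just above 0 (0.02, 0.03 and 0.01), against the fall of the gene's brightest. For 26 of the 54 genes there was 1 probe set, and for 28 there were several. None of the 28 had passing probe sets of opposite sign, and 9 had at least 1 that did not pass, mostly a dim one. Other large differences in size were those of Bub1 (−1.96 and −0.75) and of Pttg1 (−0.89, −1.44 and −0.47, the brightest first).

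The other mitotic genes, 94 of them measured, were also listed with earlier results of these data known. At 24 h 60 fell (63.8%, where 16.3% of all genes were lower). A further 6 rose (6.38%, where 16.3% were higher) and 28 did not pass, with a median change of −0.72. By role, 15 of 16 other kinetochore and centromere genes fell, 13 of 20 cyclins and G2/M regulators, 16 of 25 spindle, centrosome and cytokinesis genes, 8 of 13 condensin and cohesin genes, 2 of 5 motors and 6 of 15 genes of the anaphase-promoting complex and its regulators. The largest falls were those of Mybl2 (B-Myb, which joins MuvB to activate G2/M genes) with −2.65 ± 0.21, Trip13 (an ATPase of the checkpoint) with −2.62 ± 0.17 and Haspin (a histone H3 kinase) with −2.38 ± 0.26. The largest rises were those of Kif1b (a kinesin known mainly for organelle transport) with 1.45 ± 0.25, Top2b (the form of topoisomerase II also made in resting cells) with 0.69 ± 0.20 and Nipbl (the cohesin loader) with 0.63 ± 0.18. At 6 h 15 of the 94 rose and 10 fell (16% and 10.6%, where 11.0% of all genes were higher and 11.1% lower). Kif1b (1.21 ± 0.25) and Cenpf (a kinetochore protein, 0.85 ± 0.21) rose most, and Trip13 (−0.83 ± 0.17) and Mybl2 (−0.79 ± 0.21) fell most.

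With 51 of the 54 genes lower at 24 h, the promoter letters could hardly separate the genes of the list by direction. No conclusion on the elements is drawn from these counts. At 24 h, 26 of the 28 genes with both a CHR and a CCAAT box fell (median change −1.59), as did all 7 with only one of the elements (−1.65) and all 10 with neither (−1.63). Both exceptions, Cdc25b and Cenpa, hold both elements in the windows printed. The genes that rose at 6 h were 6 of 28 with both elements, 2 of 7 with only 1 and 2 of 10 with neither. Their median changes at 6 h were 0.24, −0.03 and 0.24 in the same order. Among the other genes of the array, which include the other mitotic genes, 22.8% of 561 with both elements fell at 24 h. So did 17.9% of 1425 with a CHR and 16.4% of 8417 without a CHR. The 3 genes with a CRE changed by −1.29, −1.30 and −1.38 at 24 h. Of these, Ndc80 and Ncaph were among the 13 that had risen at 6 h, beside 24.1% of all 54 genes. Their 6 h calls were kept under 34 (Ndc80) and 30 (Ncaph) of the 37 alternatives. The share of array genes with a CRE that rose was not counted, and the part of the CRE was not tested.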

How the data were processed

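Total RNA of WT and Kin- S49 cells was hybridised to 26 arrays, each with 22626 probe sets. The authors deposited 1 processed score per probe set and array; how it was made, and on which scale, is not given in the sources used here. The square root of the score served as the log2 intensity because of the range it gives (0.612 to 16.4, column medians 5.40 to 5.53), which is an assumption, and no further normalization was applied. Probe sets were named from the platform annotation: 20380 have 1 symbol, 691 several and 1555 none, and the brightest with 1 symbol stood for each gene. Groups come from the labels, with arrays named by their numbers there, and 0 value columns were left unused.

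One mean per group was fitted to every probe set over all 26 arrays with limma 3.58.1 in R 4.3.3 (lmFit, eBayes), without covariates, and Benjamini-Hochberg adjustment ran over all probe sets, with a threshold of 0.05. Errors of changes are standard errors. The spread of a probe set was estimated once over all groups. Each WT 24 h array thus also enters the standard errors of comparisons without WT 24 h. The fit was tested on simulated data with independent noise in each array, which does not cover arrays that deviate together. Tables, promoters and plots used Python 3.11.15, pandas 2.3.3 and matplotlib 3.10.9. The labels' array numbers run in series (WT 1 to 4, 16 to 19, 36 to 39; Kin- 5 to 8, 40 to 43, 44 to 47). Deviations from group means of the 36 pairs of arrays within a series correlated at 0.23 to 0.70. The median was −0.12 for the 289 other pairs, which include pairs of the same group, whose deviations tend to be negative by construction. Arrays of a series thus deviated together, which was read from the data, since the labels state no pairing. The main fit leaves this out, so its standard errors and p-values treat arrays as independent. The series enters only as the replicate block among the alternatives.

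The 57 genes, their roles, the 134 other mitotic symbols (94 measured) and the motifs were chosen with earlier results of these data known, so lists are given by counts and medians with no test. Genes given array by array were those with the highest change at 6 h or the lowest at 24 h in their role, those that passed against the majority at 24 h, and Ccna2, Cdk1, Foxm1 and Plk1; Birc5, Ccnb2, Cenpa and Smc2 were added after their values were seen. Of the other mitotic genes, the 3 largest rises and falls at 24 h and 2 of each at 6 h were named. Alternatives were another power (0.75) or the logarithm of the score, quantile normalization, a filter on dim probe sets (mean under 5), the mean of a gene's probe sets, the array set as a term or 1 set alone, the array series as a replicate block, array weights, fits of the compared groups only, and each array left out.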

Additional observations from a re-analysis of the deposited data

Results flagged for a closer look

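The responses of WT and Kin- cells differed, by the test of the WT change minus the Kin- change, in 7 of the 54 genes at 6 h and in 52 at 24 h. Smc4 stood out on the high side at both times, with a difference of 0.97 log2 units at 6 h and 1.07 at 24 h, as did Cdc25b, with 0.67 at 6 h and 0.55 at 24 h. In 2 genes a single Kin- 0 h array stood apart from the other 3 of its group: array 14 read 9.18 for Ndc80, beside 9.32 to 9.35, and array 5 read 10.3 for Ccnb2, beside 9.945 to 9.998. These were 2 of 52 gene and group pairs examined, and chance flags about 1 group in 20.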

How the results depend on the processing

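At 24 h, 50 to 52 genes were lower under every alternative but the one named next, leaving out 1 array included (50 to 52; 2 higher throughout), and 39 of the 53 calls at 24 h held under all 37 alternatives. With arrays 1 to 14 only, a choice made after seeing the data that leaves 1 array in each treated group, 38 genes were lower and 1 higher at 24 h, 0 were lower from 6 to 24 h, and 1 was higher at 6 h and 0 higher and 0 lower at 2 h; the response differed from Kin- in 0 (higher) at 6 h and in 10 (lower) and 0 (higher) at 24 h; fewer arrays were tested. The 6 h and 2 h counts were less firm. At 6 h, 24 genes were higher and 3 lower with array weights, 4 lower with the compared groups only, and 1 lower with power 0.75, the dim filter, the set term, arrays 16 to 47 only or the replicate block. At 2 h the higher count was 0 with the logarithm, 1 with quantile normalization, 5 with the mean of probe sets, 4 with the set term or arrays 16 to 47, 6 with the replicate block, 13 with array weights and 7 with the compared groups only; the lower count was 1 with the logarithm and 4 with array weights. From 2 to 6 h, the count of higher genes was 3 with the logarithm, 10 with the set term, 13 with arrays 16 to 47, 9 with the replicate block, 18 with array weights and 0 with arrays 1 to 14, and that of lower genes was 0 with the logarithm or arrays 1 to 14. Untreated Kin- exceeded WT in 0 genes with the logarithm or arrays 1 to 14, 2 with the dim filter, 3 with the set term, arrays 16 to 47 or the compared groups only and 5 with array weights. In Kin- cells treated against untreated, no alternative called a gene. The WT response at 2 h differed from that of Kin- in 1 lower gene with the mean of probe sets or arrays 16 to 47, 1 higher with the set term, 2 lower with array weights, and 1 higher and 2 lower with the compared groups only. From 6 to 24 h, 1 gene was higher with the mean of probe sets, the set term or arrays 16 to 47. The WT response exceeded that of Kin- at 6 h in 3 genes with the logarithm, 17 with array weights and 11 with the compared groups only, and at 24 h in 1 with the logarithm or arrays 16 to 47. Because the spread is shared over all groups, leaving out a WT 24 h array changes calls of comparisons without WT 24 h at unchanged estimates. Aurkb at 6 h kept −0.65 without WT 24 h array 4, with adjusted p 0.000962 (limma). Other causes of the shifts were not tested. The replicate block changed no other call counted here by more than 1.5 times. Leaving out 1 array gave 0 to 7 higher and 0 to 4 lower at 2 h, 6 to 18 higher and 0 to 2 lower at 6 h, 1 to 12 higher and 1 to 2 lower from 2 to 6 h, and 51 to 52 lower and 0 higher from 6 to 24 h. It gave 0 to 4 higher and 0 lower in untreated Kin- against WT, and 0 higher and 0 to 1 lower for the difference between the lines at 2 h. It gave 1 to 9 higher and 0 lower for the difference between the lines at 6 h, and 1 to 2 higher and 49 to 50 lower for that at 24 h. Of the genes given array by array, Cdc25b, Bub1, Ttk and Ccnb2 lost their 24 h call with arrays 1 to 14 only (adjusted p 0.0591, 0.0573, 0.0561 and 0.0864), and none of them under another alternative. Cenpa, not past the threshold at 24 h, passed with arrays 16 to 47 (adjusted p 0.049), array weights (0.00477) and without WT 24 h array 4 (0.00833).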
